A study of Mus musculus with 15 samples.

Results

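The receptors and ligands of the epidermal growth factor (EGF) family were followed in mouse small-intestinal crypts under Notch blockade, alone or with blockade of Lrp6. The set had 10 of the 20144 genes named on the array, namely the receptors Egfr, Erbb2 and Erbb3, the ligands Egf, Areg, Ereg, Btc, Tgfa and Hbegf, and the receptor inhibitor Lrig1. Its members were all the probes whose transcript accession on the array maps to one of these symbols, which gave 13 of the array's 39429 probes. Egfr had 3 probes, Lrig1 had 2 and each other gene had 1. All 13 passed the filter on dim probes, which kept 28486 probes in all.

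Mice aged 6 to 8 weeks were sampled 24 h after treatment in 3 groups with 5 arrays each. The control group had been given a control IgG antibody. The N1N2 group had been given blocking antibodies to Notch 1 and Notch 2, for which the labels state 1 mg/mL, a concentration and not an amount per animal. The N1N2 plus Lrp6 group had been given the same Notch antibodies and an antibody to Lrp6, a co-receptor of Wnt ligands, at 30 mg/kg. Strain and sex are not given in the sources used here. The series design calls the arrays of a group biological replicates, but the labels do not tell single animals from pools, so p-values measure only the spread between these samples. Each array measured crypt RNA in red against a universal mouse reference in green, and every value below is a log2 ratio of crypt over reference, so 0 means as much as in the reference and 1 means 2-fold more. Such ratios compare arrays for 1 probe and do not rank one gene against another. The N1N2 plus Lrp6 arrays were on slides that held no other group. Differences between that group and the others therefore cannot be told apart from differences between slides. Control and N1N2 arrays shared only 1 slide, which held control replicates 4 and 5 and N1N2 replicates 1 and 2. Differences between these 2 groups are therefore also partly mixed with differences between slides.

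EGF family ligands are made as membrane-anchored precursors and are released by proteases of the ADAM family, which rhomboid proteins help to control. The ligands in the set bind Egfr, whereas Erbb2 has no known ligand of its own and works as a partner. Erbb3 binds neuregulins and signals with little kinase activity of its own. In the intestine, EGF signals sustain the division of crypt stem cells, Paneth cells next to those stem cells are known to supply ligands, and Lrig1, which is present on crypt stem cells, promotes the loss of active receptors.

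None of the 13 probes passed the test in any of the 3 comparisons (limma, Benjamini-Hochberg adjusted over the 28486 probes, threshold 0.05). For N1N2 against control the test called 11.4% of all probes, for N1N2 plus Lrp6 against N1N2 it called 16.5%, and for N1N2 plus Lrp6 against control 0.358%. With slide as a fixed block, 0.411% of all probes were called for N1N2 against control. Without that block, at an unadjusted p under 0.05, 2 of the 13 passed in the first comparison (26.4% of all probes), 0 in the second (29.1%) and 2 in the third (12.8%). The median log2 change of the 13 was -0.12, -0.17 and -0.17 in the 3 comparisons, against -0.01, 0.00 and 0.01 over all probes. The 3 comparisons share arrays pairwise, so these medians are not independent of each other. Without N1N2 plus Lrp6 replicate 1 the medians of the comparisons with N1N2 and with control were -0.07 and -0.10. With spots carrying quality flags kept in the background step the 3 medians were 0.06, -0.08 and -0.02, so that the sign of the first turned, and with median centring in place of loess the second was -0.04. Over all probes the 3 medians with flagged spots kept were 0.04, 0.01 and 0.06, and the second with median centring was 0.02. Leaving out any other single array gave medians from -0.17 to -0.08 in the first, -0.18 to -0.10 in the second (nearest 0 without N1N2 replicate 3) and -0.25 to -0.10 in the last comparison (nearest 0 without N1N2 plus Lrp6 replicate 2). In each comparison the 95% interval of every one of the 13 probes lay within a 2-fold change either way, and that of 9 lay within 1.5-fold. The intervals that went past 1.5-fold were those of Erbb3, Areg and Hbegf in every comparison, with Egf in the first and Ereg in both others. These bounds hold only for the main processing. With the scanner software's log ratios, Egf in the first comparison was 0.64 ± 0.23 (SE), and the SE of Erbb3 was 0.49 in place of 0.21. With arrays scaled to each other, the SE of Erbb2 was 0.34 in place of 0.13. Intervals were wider there, and larger changes are not excluded.

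**Figure D1:**
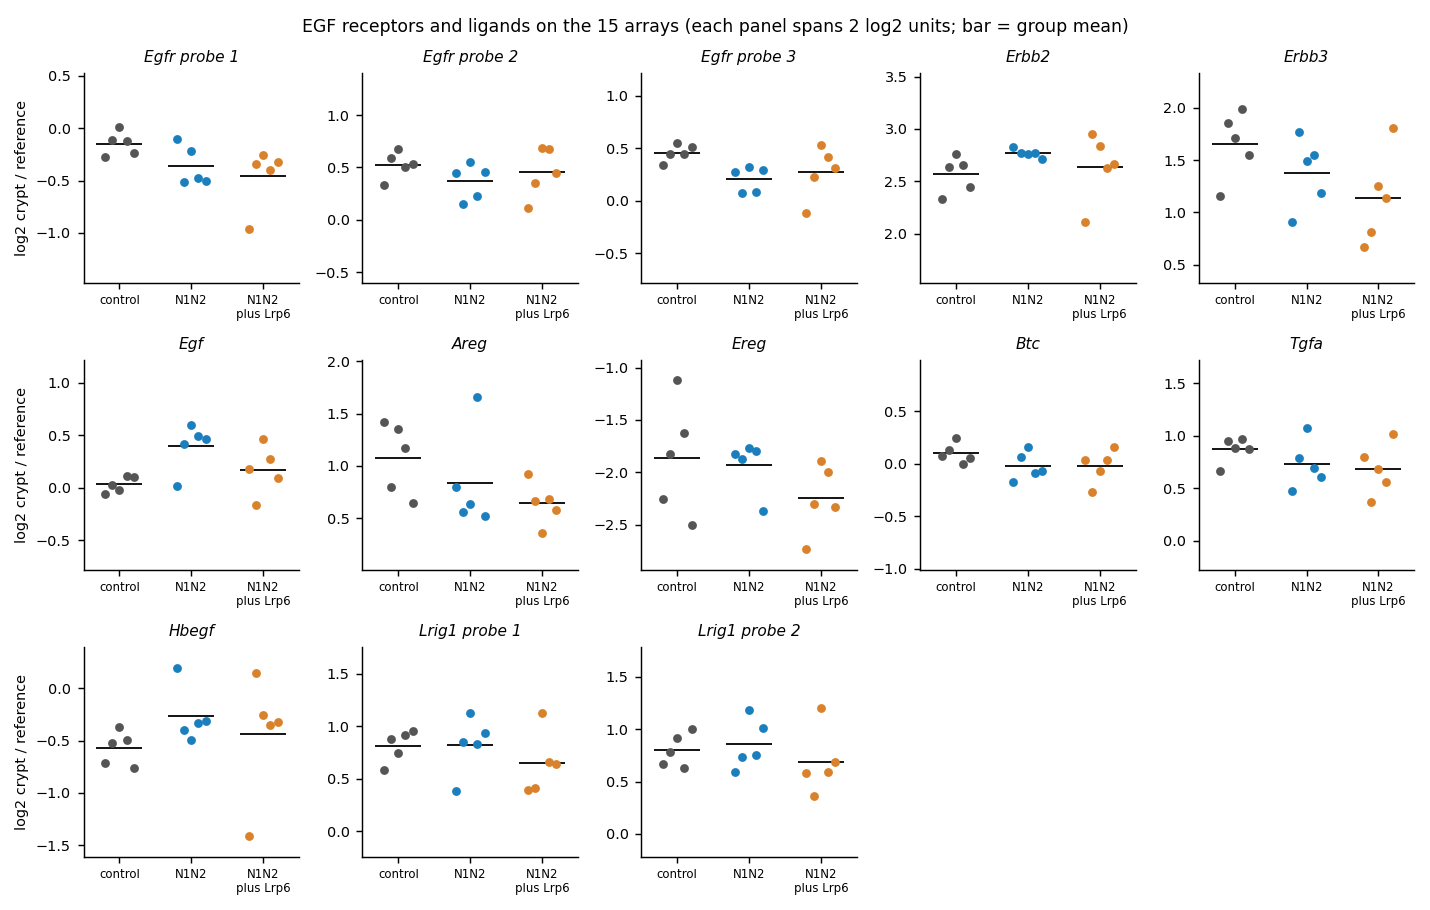
Log2 ratio of crypt over reference for each of the 13 probes, with 1 point per array (5 control, 5 N1N2, 5 N1N2 plus Lrp6) and a line at each group mean. The groups overlap in every panel except for Egfr probe 3, where the 5 N1N2 arrays, up to 0.33, sit below the 5 control arrays, which start at 0.34.

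Egfr, the receptor of the ligands in the set, was lower in the N1N2 group than in the control group on all 3 of its probes, without passing the test. The ratio of probe 1 (NM_207655) on control replicates 1 to 5 was -0.28, -0.11, 0.01, -0.13 and -0.23. On N1N2 replicates 1 to 5 it was -0.11, -0.51, -0.22, -0.48 and -0.50. On N1N2 plus Lrp6 replicates 1 to 5 it was -0.96, -0.34, -0.25, -0.40 and -0.32. The N1N2 group thus spread across and below the control range, and N1N2 plus Lrp6 replicate 1 lay far below every other array. The log2 change of probe 1 in limma was -0.21 ± 0.13 (SE, n = 5 per group) for N1N2 against control, with a 95% interval from -0.48 to 0.05 and a Benjamini-Hochberg adjusted p of 0.30. Between N1N2 plus Lrp6 and control it was -0.31 ± 0.13, with an interval from -0.57 to -0.04 and an adjusted p of 0.328. Without N1N2 plus Lrp6 replicate 1 this difference was -0.18 (adjusted p = 0.373 in limma), and the difference from N1N2 was 0.03 in place of -0.09.

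The other Egfr probes, both assigned to NM_007912, gave values close to each other. The ratio of probe 3 was 0.34, 0.45, 0.55, 0.45 and 0.51 on control replicates 1 to 5. It was 0.27, 0.07, 0.33, 0.09 and 0.30 on the N1N2 replicates. It was -0.11, 0.22, 0.53, 0.42 and 0.31 on the N1N2 plus Lrp6 replicates. For this probe every N1N2 array lay below every control array, which held for 1 of the 13 probes in this comparison and for 12.2% of all probes. In the other comparisons 0 of the 13 had groups that did not overlap, against 9.99% of all probes for N1N2 plus Lrp6 against N1N2 and 2.62% for N1N2 plus Lrp6 against control. The log2 change of probe 3 for N1N2 against control was -0.25 ± 0.10 (SE), with an interval from -0.47 to -0.03 and an adjusted p of 0.139 in limma. Fitted on the N1N2 and control arrays alone, the same difference passed (adjusted p = 0.0395). Control values of probe 2 ranged from 0.34 to 0.67, N1N2 values from 0.15 to 0.55 and N1N2 plus Lrp6 values from 0.12 to 0.68, and these ranges overlapped. Its log2 change was -0.16 for N1N2 against control (adjusted p = 0.40 in limma) and -0.07 for N1N2 plus Lrp6 against control.

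Erbb2 (NM_001003817), the ligand-less partner receptor, stood well above the reference on every array. Its ratio was 2.33, 2.64, 2.76, 2.65 and 2.44 on control replicates 1 to 5. N1N2 replicates 1 to 5 gave 2.83, 2.77, 2.76, 2.77 and 2.71. N1N2 plus Lrp6 replicates 1 to 5 gave 2.11, 2.95, 2.84, 2.63 and 2.66. The N1N2 arrays lay close together (SD 0.04, n = 5) at the top of the control range, whereas N1N2 plus Lrp6 replicate 1 was the lowest of the 15. The log2 change was 0.20 ± 0.13 (SE) for N1N2 against control, with an interval from -0.07 to 0.47 (adjusted p = 0.342 in limma), -0.13 for N1N2 plus Lrp6 against N1N2 and 0.07 for N1N2 plus Lrp6 against control. Without N1N2 plus Lrp6 replicate 1 the last difference was 0.20. The sign for N1N2 against control turned once arrays were scaled to each other (-0.51, adjusted p = 0.398 in limma).

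Erbb3 (NM_010153), the neuregulin receptor, had the lowest mean in the N1N2 plus Lrp6 group. Its ratio was 1.16, 1.86, 1.71, 1.98 and 1.55 on control replicates 1 to 5. The N1N2 arrays gave 0.91, 1.77, 1.49, 1.55 and 1.18. The N1N2 plus Lrp6 arrays gave 0.67, 0.81, 1.25, 1.14 and 1.81. Of that last group, only replicate 5 lay above the control mean of 1.65, and the groups overlapped. The log2 change for N1N2 plus Lrp6 against control was -0.51 ± 0.21 (SE), with an interval from -0.96 to -0.07 and an adjusted p of 0.328 in limma. It was -0.27 for N1N2 against control and -0.24 for N1N2 plus Lrp6 against N1N2. The reference channel of this probe was well above background on 12 of the 15 arrays, 3 of 5 in the N1N2 plus Lrp6 group. Without N1N2 plus Lrp6 replicate 1 the difference from control was -0.40. With spots carrying quality flags kept in the background step its sign turned (0.08).

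Egf, the founding ligand of the family (NM_010113), came closest to the threshold. Its ratio was -0.06, 0.02, -0.02, 0.11 and 0.11 on control replicates 1 to 5. On the N1N2 replicates it was 0.02, 0.41, 0.60, 0.50 and 0.46. On the N1N2 plus Lrp6 replicates it was 0.18, -0.17, 0.46, 0.28 and 0.09. Of the 5 N1N2 arrays, 4 lay above all control arrays and replicate 1 lay among them, and the N1N2 plus Lrp6 arrays overlapped with both groups, below N1N2 replicates 3 and 4. The control mean was 0.03 ± 0.08, the N1N2 mean 0.40 ± 0.22 and the N1N2 plus Lrp6 mean 0.17 ± 0.23 (± SD over 5 arrays). The log2 change for N1N2 against control was 0.36 ± 0.12 (SE), a 1.29-fold difference, with an interval from 0.12 to 0.61 and an adjusted p of 0.0547 in limma. For N1N2 plus Lrp6 against N1N2 it was -0.23 ± 0.12, with an interval from -0.48 to 0.02 and an adjusted p of 0.207. For N1N2 plus Lrp6 against control it was 0.13 (adjusted p = 0.663 in limma).

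Whether Egf passed depended on which arrays and probes entered the fit. Without N1N2 replicate 1 the difference from control was 0.46 (adjusted p = 0.0119 in limma) and that of N1N2 plus Lrp6 from N1N2 was -0.33 (adjusted p = 0.0444). Only 1 slide carried arrays of more than 1 group, namely control replicates 4 and 5 with N1N2 replicates 1 and 2. Within it the difference of N1N2 from control was 0.10 ± 0.18 (SE, adjusted p = 0.832 in limma), which rests on 2 arrays a group, N1N2 replicate 1 among them. The call was also made when only those 2 groups were fitted (adjusted p = 0.0281), when only probes well above background on all 15 arrays were tested (adjusted p = 0.0497) and with slide as a random block (log2 change 0.40, adjusted p = 0.0169). The estimated correlation within slides of that block was negative (-0.18). It called 17% of all probes for N1N2 against control, against 11.4% in the main fit. With the scanner software's own log ratios the difference was 0.64 and did not pass (adjusted p = 0.0932).

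**Figure D2:**
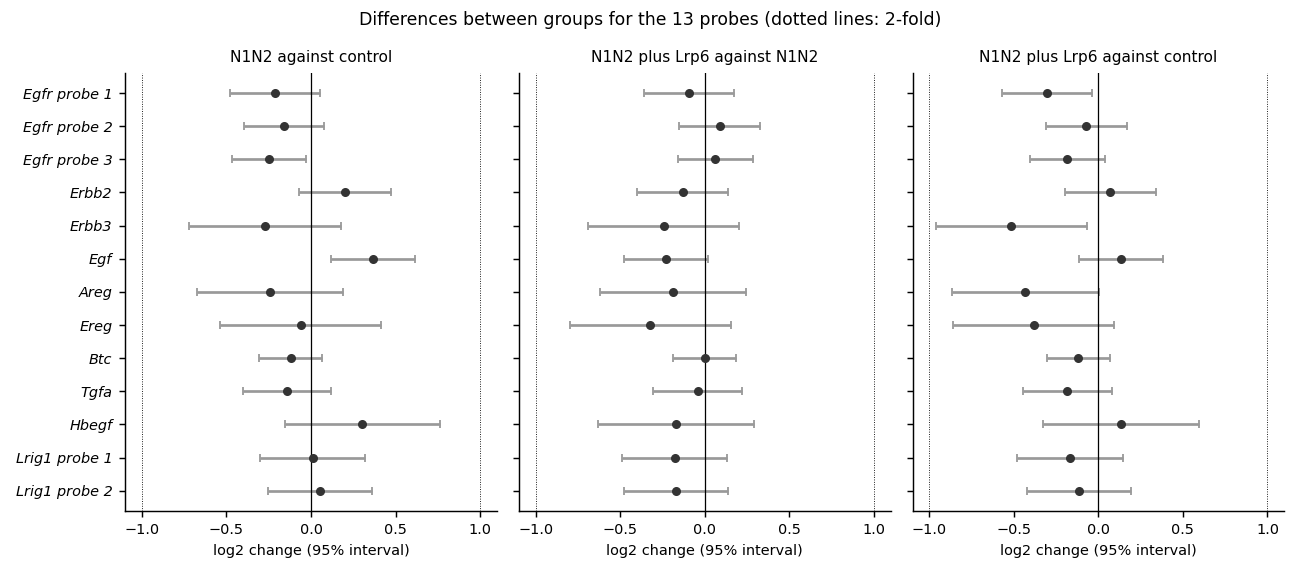
Log2 change of each of the 13 probes in the 3 comparisons, as points with 95% intervals from limma, with dotted lines at a 2-fold change. All intervals lie inside the dotted lines, and the point farthest right in the first panel is Egf at 0.36.

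Areg, Ereg and Btc are ligand genes that stand next to each other, with Epgn, in the order of protein-coding genes of the RefSeq table. Areg (amphiregulin, NM_009704) had a ratio of 1.42, 0.80, 1.35, 1.17 and 0.65 on control replicates 1 to 5. N1N2 replicates 1 to 5 gave 0.80, 0.56, 0.64, 1.66 and 0.52. N1N2 plus Lrp6 replicates 1 to 5 gave 0.93, 0.67, 0.36, 0.69 and 0.58. N1N2 replicate 4 was the highest of all 15 arrays although the other N1N2 arrays lay below the control mean of 1.08. The log2 change for N1N2 against control was -0.24 ± 0.20 (SE, adjusted p = 0.49 in limma). Between N1N2 plus Lrp6 and control it was -0.43 ± 0.20, with an interval from -0.86 to 0.00 (adjusted p = 0.391 in limma). Without N1N2 replicate 4 the difference of N1N2 from control was -0.45.

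Ereg (epiregulin, NM_007950) was far below the reference in every group. Its ratio was -2.26, -1.82, -1.12, -1.62 and -2.50 on control replicates 1 to 5. The N1N2 arrays gave -1.82, -1.88, -1.76, -1.80 and -2.37. The N1N2 plus Lrp6 arrays gave -2.74, -2.30, -1.89, -1.99 and -2.33. The control arrays covered almost the whole range of the others, and 4 of the 5 N1N2 arrays lay between -1.88 and -1.76. The log2 change was -0.06 for N1N2 against control (adjusted p = 0.899 in limma) and -0.32 for N1N2 plus Lrp6 against N1N2 (adjusted p = 0.385). For N1N2 plus Lrp6 against control it was -0.38 (adjusted p = 0.496 in limma). Leaving out control replicate 3 gave 0.12 for N1N2 against control and -0.20 for N1N2 plus Lrp6 against control, and leaving out control replicate 5 gave -0.22 and -0.54. Without N1N2 plus Lrp6 replicate 1 the differences of its group from N1N2 and control were -0.20 and -0.26. With arrays scaled to each other the difference of N1N2 from control was 0.51.

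Btc (betacellulin, NM_007568) was the dimmest of the 13 probes and was well above background in red on 5, 4 and 3 of the 5 arrays of the control, N1N2 and N1N2 plus Lrp6 groups. Control ratios ranged from -0.00 to 0.25, N1N2 ratios from -0.17 to 0.16 and N1N2 plus Lrp6 ratios from -0.27 to 0.16. The 3 ranges overlapped. Its log2 change was -0.12 ± 0.09 (SE) both for N1N2 against control and for N1N2 plus Lrp6 against control, and -0.00 between the antibody-treated groups. With the scanner software's log ratios the differences from control were -0.44 and -0.29, and neither passed (adjusted p = 0.287 and 0.591 in limma).

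Tgfa (transforming growth factor alpha, NM_031199) had a ratio of 0.66, 0.96, 0.88, 0.97 and 0.88 on control replicates 1 to 5. On the N1N2 replicates it was 0.48, 0.78, 1.08, 0.70 and 0.61. On the N1N2 plus Lrp6 replicates it was 0.79, 0.37, 0.69, 0.56 and 1.02. Both antibody-treated groups spread above and below the control range. Its log2 change was -0.14 (adjusted p = 0.511 in limma), -0.04 and -0.18 in the 3 comparisons. The reference channel was well above background on 1 of 5 arrays of the N1N2 plus Lrp6 group, so ratios there rest on a weak denominator. With spots carrying quality flags kept in the background step, the difference of N1N2 plus Lrp6 from control was 0.18 (adjusted p = 0.52).

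Hbegf (heparin-binding EGF-like growth factor, NM_010415) had a ratio of -0.72, -0.52, -0.37, -0.50 and -0.77 on control replicates 1 to 5. N1N2 replicates 1 to 5 gave 0.20, -0.40, -0.50, -0.34 and -0.31. N1N2 plus Lrp6 replicates 1 to 5 gave -1.41, 0.15, -0.26, -0.35 and -0.33. Replicate 1 was the highest array of the N1N2 group and the lowest array of the N1N2 plus Lrp6 group, while 3 arrays of each group lay between -0.40 and -0.26. The log2 change was 0.30 ± 0.22 (SE) for N1N2 against control, with an interval from -0.16 to 0.76 (adjusted p = 0.405 in limma). It was -0.17 for N1N2 plus Lrp6 against N1N2 and 0.13 for N1N2 plus Lrp6 against control. Without N1N2 plus Lrp6 replicate 1 these were 0.07 and 0.38 (adjusted p = 0.819 and 0.244 in limma).

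Lrig1 (NM_008377), the inhibitor of the set, had nearly equal ratios on both of its probes. Probe 1 gave 0.58, 0.88, 0.74, 0.92 and 0.96 on control replicates 1 to 5. The N1N2 arrays gave 0.38, 0.85, 1.12, 0.83 and 0.93. The N1N2 plus Lrp6 arrays gave 0.39, 0.41, 1.13, 0.66 and 0.64. N1N2 replicate 1 lay far below the rest of its group, and N1N2 plus Lrp6 replicate 3 far above. The log2 change of probe 1 was 0.01 ± 0.15 (SE) for N1N2 against control (adjusted p = 0.979 in limma), and that of probe 2 was 0.05 ± 0.14 (adjusted p = 0.865). For N1N2 plus Lrp6 against N1N2 the probes gave -0.18 and -0.17, and for N1N2 plus Lrp6 against control -0.17 and -0.12. Probe 2 ranged from 0.63 to 1.00, from 0.59 to 1.18 and from 0.36 to 1.21 in the control, N1N2 and N1N2 plus Lrp6 groups.

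Probe 1 of Egfr and the probes of Erbb2, Egf and Tgfa were each printed as 10 spots, of which 8 to 10 were used, so the noise within an array could be set beside the spread between arrays. Spots of 1 array share their RNA, labelling and hybridisation, so this noise leaves those steps out. The mean SD between spots of an array was 0.046 for Egfr, 0.047 for Erbb2, 0.084 for Egf and 0.092 for Tgfa. The SD between arrays of a group was 0.208, 0.213, 0.191 and 0.204 in the same order, which is 4.49, 4.55, 2.27 and 2.23 times as large. Each array value is a mean over its spots, so its own spot noise is smaller than the SD between single spots. Among the single-spot probes, Ereg, Hbegf, Erbb3 and Areg varied most between arrays of a group, and their residual SDs were larger than those of 94.9%, 94.1%, 93.5% and 92.6% of all probes.

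**Figure D3:**
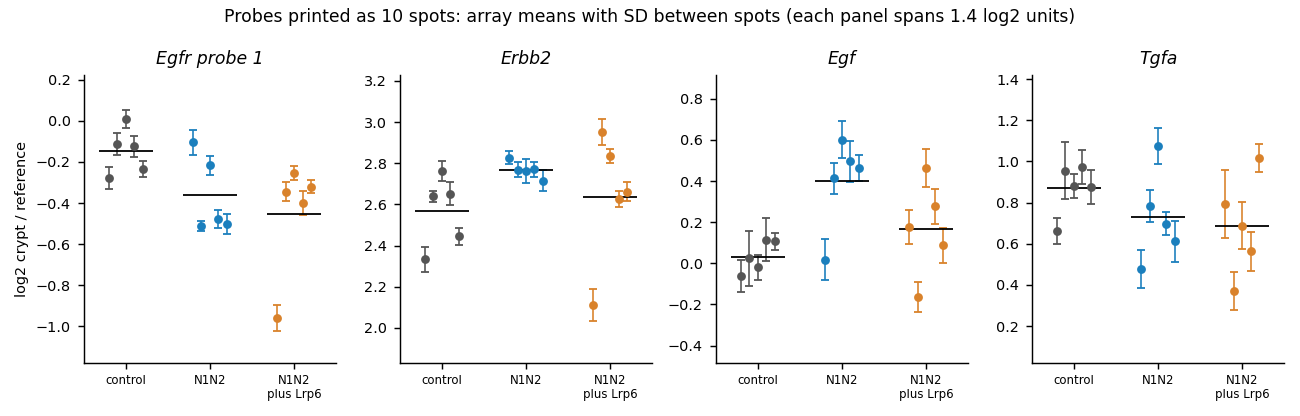
Array means of the 4 probes printed as 10 spots, with bars for the SD between spots, by group; every panel spans 1.4 log2 units. Mean SDs between single spots were 0.046 to 0.092 and SDs between arrays within groups, over all 3 groups, were 0.191 to 0.213. The 5 N1N2 arrays for Erbb2 (SD 0.04) lie about as close together as single spots of an array, although each array value is a mean over spots.

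Some arrays were low or high for many members at once. N1N2 plus Lrp6 replicate 1 was the lowest of its group for 8 of the 13 probes, from 6 genes, and for 32.5% of all probes. Control replicate 1 was likewise the lowest of its group for 8 of the 13, from 6 genes, and for 24.4% of all probes, and N1N2 replicate 1 for 6 of the 13, from 5 genes, and 27.6%. Replicate 3 was the highest of its group for 7, 8 and 7 of the 13 in the control, N1N2 and N1N2 plus Lrp6 groups, against 26.3%, 21.9% and 15.8% of all probes. The counts for replicate 3 include more than 1 probe of Egfr in each group, and both probes of Lrig1 in the antibody-treated groups. N1N2 plus Lrp6 replicate 1 also had the lowest share of spots well above background in red (57.2%, against up to 79.8% elsewhere), the lowest mean of the 8 epithelial markers (4.50) and of the 5 Paneth cell markers tested (4.75), and the lowest mean of the 12 stromal and muscle markers (-4.35). Its means of the 7 goblet cell and 7 enterocyte markers (6.28 and 6.88) were also the lowest. Those of the 6 stem cell, 7 enteroendocrine and 9 immune cell markers (2.05, 5.23 and 1.70) were not. The mean share of spots well above background in red was 75.8%, 73.9% and 64.8% in the control, N1N2 and N1N2 plus Lrp6 groups. The part of these array differences in the members' values was not tested.

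The labelled tissue was checked against marker lists. All 8 epithelial markers were measured, and their mean log2 ratio was 4.81, 5.01 and 4.82 in the control, N1N2 and N1N2 plus Lrp6 groups. The mean of the 12 stromal and muscle markers was -3.07, -3.42 and -3.86, and that of the 9 immune cell markers 2.19, 1.92 and 1.87. Against control, 3 of 7 goblet cell, 1 of 7 enteroendocrine and 1 of 8 epithelial markers rose in the N1N2 group, and 2 of 6 stem cell, 2 of 12 stromal and muscle and 2 of 9 immune cell markers fell (limma, adjusted p under 0.05, 11.4% of all probes called). Between N1N2 plus Lrp6 and N1N2, 2 of 6 stem cell markers rose, and 2 of 7 goblet cell, 4 of 12 stromal and muscle and 1 of 8 epithelial markers fell (16.5% of all probes called). Between N1N2 plus Lrp6 and control, 1 goblet cell and 1 enteroendocrine marker rose, and 1 stem cell marker and 2 stromal and muscle markers fell (0.358% of all probes called). In bulk crypts, fewer cells of a type and less RNA per cell cannot be told apart. Whether these shifts bear on the members was not tested.

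The other genes of the pathway were taken from a list of 60, of which 57 passed the filter on dim probes, each represented by its probe with the brightest red signal. In N1N2 against control 3 of the 57 rose and 0 fell (5.26% called, against 11.4% of all probes). Between N1N2 plus Lrp6 and N1N2, 2 rose and 4 fell (10.5% against 16.5%), and in N1N2 plus Lrp6 against control 2 rose and 0 fell (3.51% against 0.358%). The medians over the list were -0.03, -0.01 and -0.05. None of the 20 adaptors and kinases between the receptors and ERK passed in any comparison, so the genes that moved were induced genes, 1 feedback phosphatase and 1 regulator of ligand release.

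**Figure D4:**
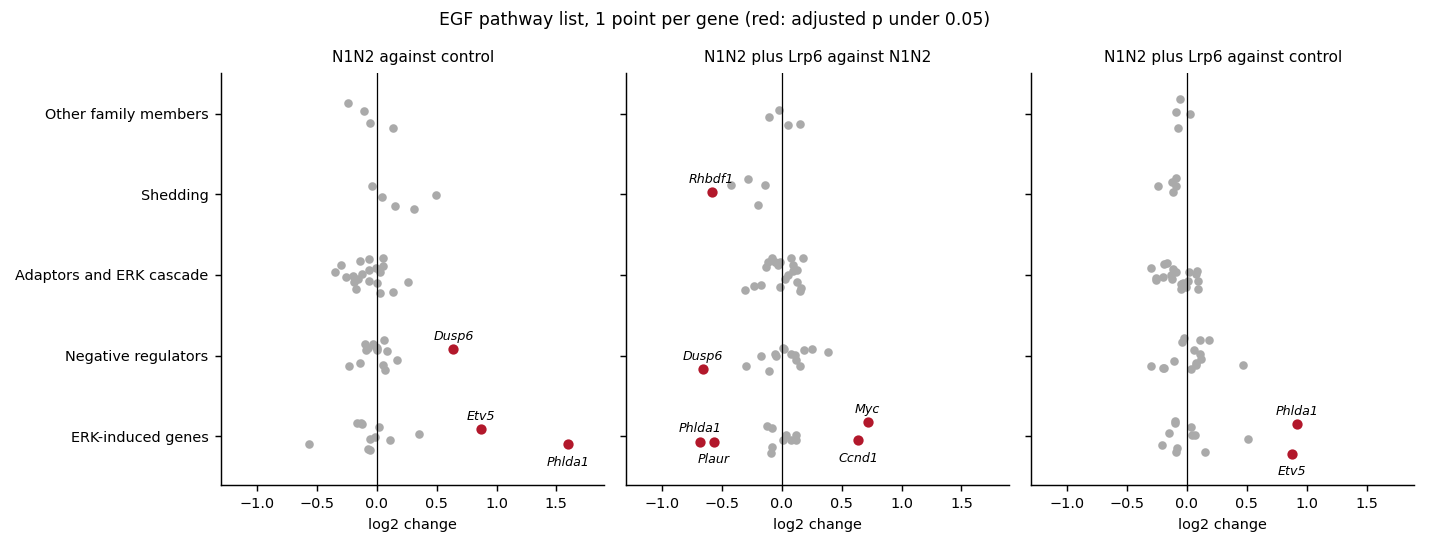
Log2 change of the 57 pathway genes by class in the 3 comparisons, 1 point per gene, with red points at a Benjamini-Hochberg adjusted p under 0.05 in limma. The red points number 3, 6 and 2, and none is an adaptor or member of the ERK cascade.

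Dusp6, the phosphatase that ERK signalling induces and that inactivates ERK, was higher in the N1N2 group than in both others. Its ratio was -0.03, 0.12, -0.00, 0.18 and 0.04 on control replicates 1 to 5. On the N1N2 replicates it was 0.73, 0.81, 0.65, 0.86 and 0.45. On the N1N2 plus Lrp6 replicates it was -0.14, 0.12, -0.15, 0.32 and 0.03. No N1N2 array overlapped with an array of either other group. Dusp6 rose by 0.64 ± 0.10 (SE) in N1N2 against control (adjusted p = 0.000765 in limma) and fell by 0.66 ± 0.10 in N1N2 plus Lrp6 against N1N2 (adjusted p = 0.000798). For N1N2 plus Lrp6 against control the log2 change was -0.02 (interval from -0.23 to 0.19). With arrays centred on their median in place of loess the first 2 differences were 0.32 and -0.25 and neither passed (adjusted p = 0.196 and 0.335 in limma). Within the shared slide the difference of N1N2 from control was 0.66 (adjusted p = 0.173). Both comparisons use the same N1N2 arrays. The mean of the 7 goblet cell markers was 6.44, 7.20 and 6.66 in the control, N1N2 and N1N2 plus Lrp6 groups, and its part in the Dusp6 values was not tested.

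Etv5, a transcription factor gene that ERK signalling induces, was higher than control in both antibody-treated groups. Control ratios lay between -3.54 and -3.33, N1N2 ratios between -2.70 and -2.29 and N1N2 plus Lrp6 ratios between -2.91 and -2.16. Neither treated group overlapped with the control group. Etv5 rose by 0.87 ± 0.12 (SE, adjusted p = 0.000373 in limma) in N1N2 against control and by 0.88 (adjusted p = 0.0055) in N1N2 plus Lrp6 against control, and differed by 0.01 between the treated groups. Both calls were lost with arrays scaled to each other (1.69 and 1.54, adjusted p = 0.0524 and 0.305 in limma), the first also within the shared slide (0.75, adjusted p = 0.125) and the second with median centring (0.89, adjusted p = 0.059).

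Phlda1, which growth factors are known to induce, had a ratio between -2.51 and -2.12 in the control group and between -1.20 and -0.48 in the N1N2 group. In the N1N2 plus Lrp6 group it lay between -2.12 and -1.01, so that this group spanned the gap between the others. Phlda1 rose by 1.60 ± 0.17 (SE, adjusted p = 3.6e-05 in limma) in N1N2 against control, fell by 0.68 in N1N2 plus Lrp6 against N1N2 (adjusted p = 0.0148) and rose by 0.92 in N1N2 plus Lrp6 against control (adjusted p = 0.0336). The call against control was lost for N1N2 plus Lrp6 without any 1 of control replicates 2 to 5 or N1N2 plus Lrp6 replicates 1 to 4, with changes from 0.81 to 0.94 (adjusted p from 0.0601 to 0.112). It was also lost with median centring (adjusted p = 0.182), with scaled arrays (adjusted p = 0.259), with only those 2 groups fitted (adjusted p = 0.0807) and with spots carrying quality flags kept in the background step (adjusted p = 0.0576 in limma). That against N1N2 was lost with median centring (-0.45, adjusted p = 0.26) and with scaled arrays (-0.71, adjusted p = 0.371 in limma).

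Rhbdf1, a rhomboid-like protein that takes part in the release of EGF family ligands, was the only 1 of the 5 shedding genes to pass. Its ratio was -1.71, -1.43, -1.67, -1.33 and -1.55 on control replicates 1 to 5. N1N2 replicates 1 to 5 gave -1.42, -0.95, -0.89, -0.91 and -1.03. N1N2 plus Lrp6 replicates 1 to 5 gave -2.30, -1.65, -1.15, -1.41 and -1.62. The N1N2 arrays were the highest, with replicate 1 overlapping with both other groups. Rhbdf1 fell by 0.59 ± 0.17 (SE, adjusted p = 0.0275 in limma) in N1N2 plus Lrp6 against N1N2, a call lost without N1N2 replicate 2, 3 or 4 (-0.56, -0.55 and -0.55, adjusted p = 0.0645, 0.0611 and 0.0728). It was 0.50 higher in N1N2 than in control without passing (adjusted p = 0.0707), and passed without N1N2 replicate 1 (0.59, adjusted p = 0.0397) and with only those 2 groups fitted (adjusted p = 0.0113 in limma). The fall was also lost with median centring (-0.37, adjusted p = 0.285), with scaled arrays (-0.71, adjusted p = 0.197) and with only its own 2 groups fitted (adjusted p = 0.0696 in limma). Adam17, the main sheddase of these ligands, had a log2 change of 0.04, -0.14 and -0.09 in the 3 comparisons and did not pass. In N1N2 plus Lrp6 against N1N2 the shedding genes Adam10 and Rhbdf2 changed by -0.42 and -0.28 without passing (adjusted p = 0.096 and 0.1038 in limma). Both were called there with slide as a random block, which called 29.2% of all probes, against 16.5% in the main fit.

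Among the induced genes, Plaur, the urokinase receptor gene, fell by 0.57 ± 0.12 (SE, adjusted p = 0.0061 in limma) in N1N2 plus Lrp6 against N1N2. In the same comparison Ccnd1, the gene of cyclin D1, rose by 0.64 ± 0.11 (adjusted p = 0.0024) and the transcription factor gene Myc rose by 0.72 ± 0.20 (adjusted p = 0.0216). Ccnd1 and Myc are also known as Wnt targets. Against control, Myc changed by -0.56 in N1N2 (adjusted p = 0.0786 in limma) and 0.15 in N1N2 plus Lrp6 (adjusted p = 0.787). Ccnd1 differed from control by -0.13 in N1N2 and 0.51 in N1N2 plus Lrp6 (adjusted p = 0.519 and 0.0699 in limma). Plaur differed from control by 0.35 and -0.21 in the same order (adjusted p = 0.0705 and 0.489 in limma). With only the N1N2 and control arrays fitted, Myc and Plaur passed (adjusted p = 0.0208 and 0.0256 in limma). The difference of Ccnd1 between N1N2 plus Lrp6 and control passed in 3 of 21 alternatives. These were without control replicate 1, without N1N2 plus Lrp6 replicate 5 and with slide as a random block (adjusted p = 0.0416, 0.0445 and 0.00247 in limma). All 3 calls against N1N2 were lost once arrays were scaled to each other (adjusted p = 0.297, 0.0962 and 0.199). That of Myc was also lost without N1N2 replicate 1 (0.62, adjusted p = 0.0505 in limma) and with the scanner software's log ratios (0.74, adjusted p = 0.0506). Egr1, an immediate early gene of ERK signalling, had a log2 change of -0.05, 0.12 and 0.06 in the 3 comparisons and did not pass.

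**Figure D5:**
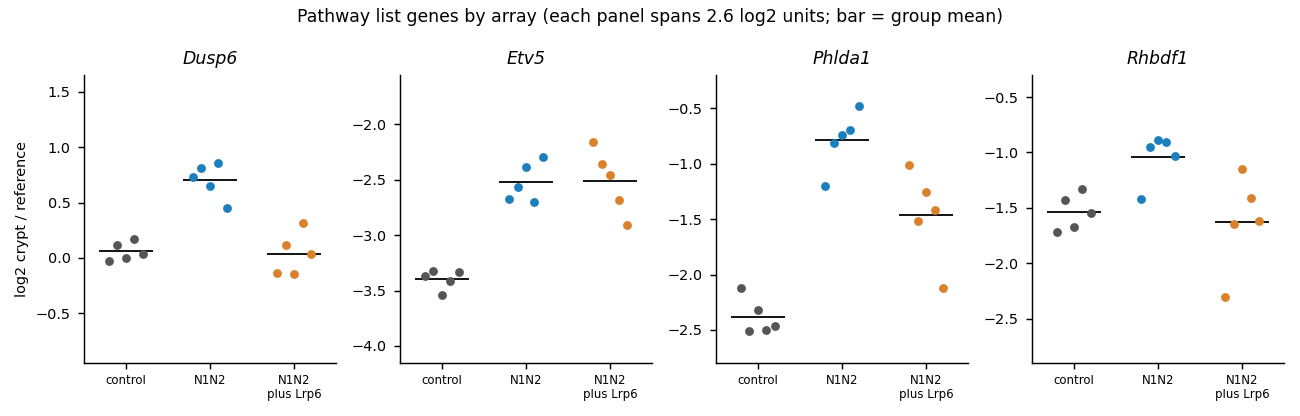
Log2 ratio of crypt over reference by array for Dusp6, Etv5, Phlda1 and Rhbdf1, 5 arrays per group with a bar at each mean. Dusp6 on the N1N2 arrays lies between 0.45 and 0.86, above all control and N1N2 plus Lrp6 arrays.

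Of the remaining family members and inhibitors, none passed in any comparison, but with slide as a random block Errfi1 and Spred1 were called in N1N2 plus Lrp6 against N1N2 and Cbl in N1N2 plus Lrp6 against control. That block called 29.2% and 11.5% of all probes in these comparisons, against 16.5% and 0.358% in the main fit. Erbb4, the fourth receptor of the family, was not well above background in red on any array and had no tested value, and Nrg3 and Spry4 were not kept either. Nrg1, a neuregulin ligand of Erbb3, lay between -3.83 and -3.03 over the 15 arrays, with log2 changes of 0.13, -0.11 and 0.03. Epgn, the ligand gene next to Ereg, had log2 changes of -0.11, 0.05 and -0.05. Errfi1, a feedback inhibitor that binds Egfr, had log2 changes of 0.00, -0.30 and -0.30. Spry2, a feedback inhibitor of receptor signalling, had log2 changes of 0.09, 0.38 and 0.47 with an SE of 0.39, and single arrays of the N1N2 and N1N2 plus Lrp6 groups reached 1.46 and 1.94.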

How the data were processed

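Per the file headers, the 2-colour Agilent arrays (Cy5 crypt, Cy3 reference, no dye swap) were read with Feature Extraction 11.0.1.1. The authors deposited, per spot, median intensity and background intensity, which were used because no mean columns were in the files, and a log10 ratio used as an alternative. The authors' deposited table of log2 values, made with R 3.0.0 and limma 3.6.7 per the submitters' processing notes, served as another.

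Using limma 3.58.1 (R 4.3.3, with the data.table package at 1.17.8), spots with quality flags (401 to 761 per array) were left out, normexp (offset 50) and loess were applied, and spots of a probe were averaged. A probe was kept if the red signal was well above background on 4 or more of a group's 5 arrays. Between 57.2% and 79.8% of spots per array were, and the number of arrays limits the precision. The comparisons came from 1 limma fit of 15 arrays (lmFit, eBayes, two-sided, Benjamini-Hochberg over 28486 probes, threshold 0.05), tested on simulated data. Changes are differences of group means. Names came from the array's accessions through a RefSeq table of assembly GRCm38.p6, without coordinates. All members were named by every probe, as were, of the pathway list, up to 4 passing genes per class and comparison plus 6 fixed ones (Erbb4, Nrg1, Errfi1, Spry2, Dusp6, Egr1). Adam17, Adam10, Rhbdf2 and Epgn were named after their values were seen. Genes with a pattern like a member's were to be named only for members that passed. Members and lists were chosen with earlier results of these data known. The 27 alternatives cover background, normalization, filter, probe choice, slide, replicate block and each array left out.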

Additional observations from a re-analysis of the deposited data

Results flagged for a closer look

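In 4 of the 39 sets of 5 arrays (13 probes in 3 groups), 1 array stood apart from the rest of its group by Dixon's criterion, which chance alone meets in about 1 of 20 sets. For Egfr probe 1, N1N2 plus Lrp6 replicate 1 had a log2 ratio of -0.96, and the nearest array of the group had -0.40. For Areg, N1N2 replicate 4 had 1.66, and the nearest array had 0.80. For Ereg, N1N2 replicate 5 had -2.37 against -1.88 for the nearest. For Hbegf, N1N2 replicate 1 had 0.20 against -0.31 for the nearest, and without it the difference of N1N2 from control was 0.19 in place of 0.30. The Egfr value was the mean of at least 8 spots, whereas the other 3 probes had 1 spot per array. The other Egfr probes also had their group's lowest value on N1N2 plus Lrp6 replicate 1, at 0.12 and -0.11.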

How the results depend on the processing

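Over the alternatives, 820 values of member probes were recomputed. Of these, 810 kept their direction and their side of the threshold, 8 came to pass and 2 reversed, where a difference smaller than its SE was taken to have no direction; 47 changed sign in all. The reversals were Erbb2 in N1N2 against control with arrays scaled to each other (-0.51) and Tgfa in N1N2 plus Lrp6 against control with spots carrying quality flags kept in the background step (0.18). The number of member probes called in N1N2 against control was 0, but 1 with only probes well above background on all 15 arrays (Egf), 2 with only the 2 groups compared (Egf and Egfr probe 3), 1 with slide as a random block (Egf) and 0 to 1 leaving out 1 array. In N1N2 plus Lrp6 against N1N2 it was 0 to 1 leaving out 1 array (1 without N1N2 replicate 1), and in N1N2 plus Lrp6 against control it was 2 with slide as a random block (Egfr probe 1 at -0.33 and Erbb3 at -0.58, adjusted p = 0.0301 and 0.0292 in limma). That block's estimated correlation within slides was negative (-0.18), and only N1N2 against control could be fitted with slide as a fixed block. The number of pathway genes called in N1N2 against control was 3, but 8 with only the 2 groups, 1 with slide as a fixed block, 5 with the random block and 3 to 4 leaving out 1 array. Between N1N2 plus Lrp6 and N1N2 it was 6, but 1 with scaled arrays, 13 with the random block and 5 to 7 leaving out 1 array. For N1N2 plus Lrp6 against control it was 2, but 1 with flagged spots kept, 0 with median centring, 0 with scaled arrays, 1 with only the 2 groups, 6 with the random block and 1 to 3 leaving out 1 array (1 without any 1 of control replicates 2 to 5 or N1N2 plus Lrp6 replicates 1 to 4). The cause of these shifts was not tested. Over all probes, 3257 were called in N1N2 against control, but 2151 with the scanner's log ratios, 1457 with median centring, 764 with scaled arrays, 117 with the fixed and 4834 with the random block, 4970 with only the 2 groups, and 1747, 1756 or 1815 without control replicate 2, control replicate 5 or N1N2 replicate 4. In N1N2 plus Lrp6 against N1N2 it was 4713, but 2695 with flagged spots kept, 384 with scaled arrays, 8327 with the random block and 2938 without N1N2 replicate 4. In N1N2 plus Lrp6 against control it was 102, but between 1 with scaled arrays and 3270 with the random block. The labels tie the replicate numbers to nothing shared, and not every pair of same-numbered arrays had deviations correlated above 0.1. Between N1N2 and control 4 of 5 pairs did (-0.01 to 0.61), and in the comparisons with N1N2 plus Lrp6 none did (-0.42 to 0.08), so the numbers were not taken as pairs. With a replicate block the member probes called were 0 in each comparison, the pathway genes called 4, 6 and 1, and all probes called 2823, 4369 and 32; Rhbdf1 passed in N1N2 against control (adjusted p = 0.0261 in limma), and Myc against N1N2 and Phlda1 against control did not in N1N2 plus Lrp6 (adjusted p = 0.0507 and 0.106). Signals not well above background on some arrays limit the ratios of Btc and, in the reference channel, of Tgfa and Erbb3.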
